A study of Rattus norvegicus with 13 samples.

Results

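Hepatic gene expression was compared between pregnant rats given ethanol and pregnant rats given none, both at the full energy supply of the study, on 6 of the 13 arrays of the series. The members were chosen by array title alone: 3 arrays titled EtOH-220 and 3 titled TEN-220. All rats were time-impregnated female Sprague Dawley rats. The diet of TEN-220 rats held no ethanol and supplied 220 kcal daily per kg of body weight raised to the power of 0.75. EtOH-220 rats received 12 g of ethanol per kg per day in a diet of the same energy. The other 7 arrays came from rats held at 160 kcal on the same scale, without ethanol (TEN-160, 3 arrays) or with 12 g per kg per day (EtOH-160, 4 arrays). The tissue is given by the series title. The labels state neither ages nor the day of gestation, nor whether animals were pooled before hybridisation, so p-values measure only the spread between these samples, which may be technical. In RNA of whole liver, fewer cells of a type and less RNA per cell cannot be told apart.

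The liver oxidises most ingested ethanol, first to acetaldehyde by alcohol dehydrogenase and the cytochrome P450 Cyp2e1, then to acetate by aldehyde dehydrogenases. Ethanol is also known to press on the methionine cycle of the liver, in which homocysteine is either remethylated by betaine-homocysteine methyltransferase or passed through cystathionine towards cysteine and glutathione. Haem oxygenase, the unfolded protein response and the C/EBP transcription factors are standard readouts of hepatic stress, and the acute phase proteins are standard readouts of inflammation.

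Each array carried 8799 probe sets, of which 59 were controls and 8740 were not. The deposited signals were on a common scale on 12 arrays (2%-trimmed mean 500.9 to 501.0), and TEN-220 replicate 1 was not on it (133.3). It was brought to the others by quantile normalization, so all signals below are normalized signals with no unit, and a change is the EtOH-220 mean minus the TEN-220 mean on the log2 scale. Hepatocyte markers were bright in all 6 arrays, with albumin between 37854 and 38733 and Hnf4a, the dimmest, between 613 and 1071. The summed signal of 19 markers ranged from 360340 to 363731 without and from 339060 to 362922 with ethanol. Quantile normalization sets signals by rank, so the narrow range of the brightest probe sets, and of sums they dominate, largely follows from it. EtOH-220 replicate 1 stood apart from the other 5 arrays. Its Pearson correlation with them over the 5244 tested probe sets was 0.935 to 0.943, against 0.955 to 0.974 among the others (genes are not independent replicates). The 6 probe sets for ribosomal RNA precursors, singled out after their values were seen, had a geometric mean of 1164 on that array and 385 on EtOH-220 replicate 3, against 105 to 131 on the other 4. The GAPDH 3′ to 5′ signal ratio, a measure of RNA integrity that is lower in more intact RNA, was 2.021, 2.323 and 1.525 in TEN-220 and 1.038, 1.47 and 1.204 in EtOH-220. All 3 EtOH-220 values lay below all 3 TEN-220 values (exact permutation test, two-sided, p = 0.1, the smallest that 3 against 3 arrays allow). The actin ratio was 3.002, 2.802 and 1.972 against 1.931, 1.963 and 2.179, also lower on average with ethanol but overlapping (p = 0.2 by the same exact permutation test). The hexokinase ratio went the other way, at 0.55, 3.593 and 6.417 against 3.849, 10.727 and 7.72, and overlapped too (p = 0.2, same exact test). Fits without EtOH-220 replicate 1, and with the GAPDH ratio as a covariate, are summarised for the named genes after the lists, and single values are given where they move a result most.

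Across the liver transcriptome few differences could be called with 3 arrays a group. The change had a median of -0.01 over all 8740 probe sets, with the middle 50% between -0.25 and 0.22. Quantile normalization holds that median near 0, so it does not measure the size of the difference. By 2-fold or more, 285 probe sets (3.26%) were higher and 193 (2.21%) lower. The 3496 dimmest probe sets, which were not tested, held 177 of the higher and 129 of the lower ones. Among the 5244 tested probe sets, which stand for 3130 genes where they name 1 gene, limma called 1 at an adjusted p under 0.05 (0.0191% of those tested; 0.0319% of the 3130 genes), and it was lower. At an unadjusted p under 0.05 there were 524 (9.99%), where 262.2 would be expected if no probe set differed. Of the 524, 252 (4.81%) were higher and 272 (5.19%) lower. The 3 EtOH-220 arrays did not overlap the 3 TEN-220 arrays in 935 probe sets (17.8%), 416 higher (7.93%) and 519 lower (9.9%). With 3 against 3 arrays a share of 0.1 would be expected if no probe set differed. The split between higher and lower depended on the scaling, each of which has its own set of probe sets at an unadjusted p under 0.05. It was 48.1% higher here, 56.5% with trimmed-mean scaling (306 higher and 236 lower) and 33.1% with arrays centred on their median (195 and 395). With the values as deposited, where the unscaled TEN-220 array shifted the median change by 0.67, it was 98.8% (570 and 7). Single genes are therefore described by name, and only the called one is said to have changed.

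**Figure D1:**
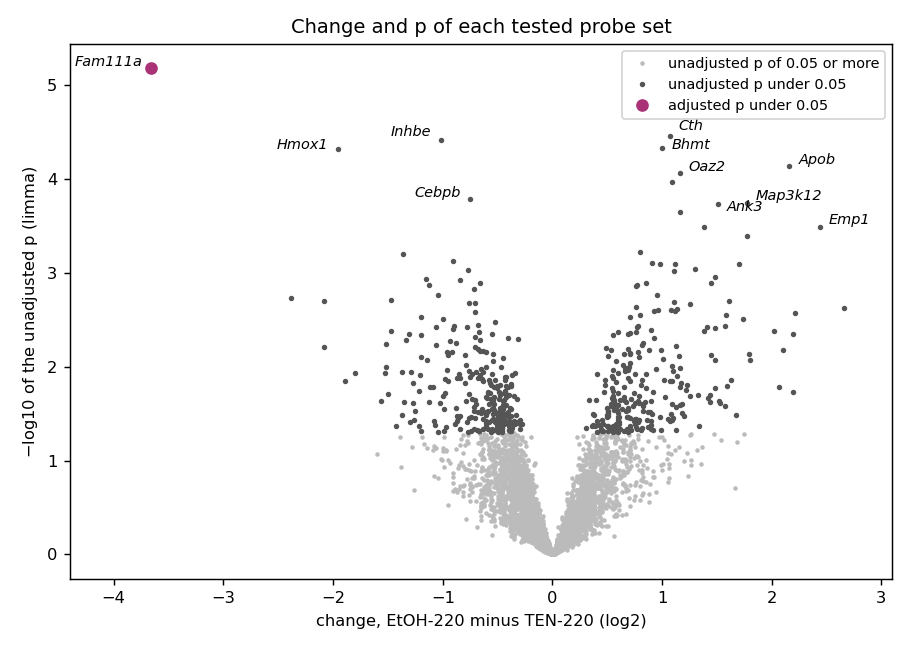
Change with ethanol at 220 kcal (x axis, EtOH-220 minus TEN-220, log2) against −log10 of the unadjusted limma p (y axis) for the 5244 tested probe sets. Fam111a, the large point at -3.66, is the 1 probe set with an adjusted p under 0.05; the next, among them Cth, Bhmt, Inhbe and Hmox1, stand just beyond the threshold.

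Fam111a, a trypsin-like protease known from DNA replication and from the restriction of viruses, fell in the ethanol group. Its signals were 1115, 585 and 526 in TEN-220 and 169, 37.8 and 26.6 in EtOH-220. The highest ethanol array stayed below the lowest control array, and 2 of the 3 ethanol arrays lay under the background signal of 44 set by control probes for foreign sequences. The change was -3.66 ± 0.522 (SE; 12.64-fold between group levels of 700 and 55.4; adjusted p = 0.035). A single probe set names the gene, so no other probe set bears on it. Without EtOH-220 replicate 1 the change was -4.46 (adjusted p = 4.51e-05). With the GAPDH ratio as covariate it was -4.26 with a wider SE of 0.859 (unadjusted p = 0.000281 in limma's test). It no longer passed there (adjusted p = 0.467). The GAPDH ratio did not overlap between the 2 groups, which widens standard errors in that fit. Fam111a also missed the threshold without TEN-220 replicate 1 (0.093) or 2 (0.0716) and without EtOH-220 replicate 3 (0.0632). The same held without EtOH-160 replicate 1 (0.0671), 2 (0.0552) or 3 (0.0789), arrays that enter only through the shared spread.

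The methionine cycle gave the higher genes nearest the threshold. Cth, cystathionine gamma-lyase, which makes cysteine from cystathionine, had signals of 2899, 2231 and 2368 in TEN-220 and 6062, 5153 and 4501 in EtOH-220 on one probe set. Every ethanol array lay above every control array, by a change of 1.07 ± 0.178 (SE), with an adjusted p of 0.0504. The second Cth probe set, taken from the same source sequence, gave 3543, 2550 and 2571 against 4867, 7576 and 7012, again without overlap (1.16 ± 0.234, adjusted p = 0.098). Bhmt, the betaine-dependent remethylating enzyme, had signals of 9784, 6889 and 8011 against 17007, 17289 and 14761. Its groups did not overlap either, and its level was 2.00-fold higher (change 1.00 ± 0.172, adjusted p = 0.0504). Both values held their size without EtOH-220 replicate 1 (0.96 for Cth on its first probe set, 0.98 for Bhmt) and with the GAPDH covariate (1.09 and 1.15). Sardh, which oxidises sarcosine in mitochondria, had 351, 321 and 538 against 608, 621 and 673, a change of 0.69 that did not pass (adjusted p = 0.286). Its other probe sets gave 1.44, with the low control value of 47.6 in replicate 2, and -0.12. With the GAPDH covariate the first was at 0.20. Mat1a, which makes S-adenosylmethionine, overlapped on its 1 probe set (0.26, adjusted p = 0.854), and with the GAPDH covariate it was at -1.0 (unadjusted p = 0.0189 in limma's test). Gnmt, the glycine N-methyltransferase, overlapped on its brightest probe set (0.14, adjusted p = 0.903). Another gave 607, 481 and 562 against 719, 696 and 620 without overlap (0.31, adjusted p = 0.757), and the remaining one gave -0.16. Of 20 tested genes of the methionine cycle and one-carbon metabolism, none passed the adjusted test, 3 were higher and none lower at an unadjusted p under 0.05, which 9.14% of all 3130 genes reached (3.64% higher, 5.5% lower). Their median change was 0.11, against -0.06 over all genes; without EtOH-220 replicate 1 it was 0.16 with 3 higher, and it was 0.0 with arrays centred on their median.

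Hmox1, Inhbe, Cebpb and Hyou1, genes of stress responses, had lower signals with ethanol on their probe sets nearest the threshold, and none passed the adjusted test. Hmox1, haem oxygenase 1, which degrades haem and is induced by oxidants, had signals of 490, 577 and 741 in TEN-220 and 91.8, 195 and 197 in EtOH-220. The highest ethanol array was under the lowest control array (change -1.96 ± 0.338, adjusted p = 0.0504). Its brighter second probe set, from another source sequence, gave 1219, 1666 and 1979 against 554, 764 and 562, without overlap (-1.36 ± 0.31, adjusted p = 0.194). Inhbe, the beta E subunit of activin that hepatocytes secrete, had 1626, 1695 and 1710 against 884, 937 and 686. The control arrays were close together and the ethanol arrays all lower (-1.02 ± 0.171, adjusted p = 0.0504). Cebpb, a transcription factor of the acute phase and fasting responses, had 1845, 1959 and 1667 against 1249, 1078 and 945 (-0.75 ± 0.146, adjusted p = 0.0897). Its second probe set gave 538, 337 and 371 against 161, 241 and 226 (-0.98), so neither probe set overlapped. Hyou1, a chaperone of the endoplasmic reticulum, was at 1733, 2018 and 1972 against 999, 1112 and 1083 on its bright probe set (-0.84, adjusted p = 0.213). The other Hyou1 probe set, at levels of 153 and 167, gave 0.12 and overlapped. Without EtOH-220 replicate 1 the changes were -1.60 for Hmox1 on its first probe set, -1.07 for Inhbe, -0.85 for Cebpb and -0.79 for Hyou1. With the GAPDH covariate Hmox1 was at -1.87 and Inhbe at -0.91.

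The wider stress lists differed from each other. Over all 3130 genes, 3.64% were higher and 5.5% lower at an unadjusted p under 0.05 in limma's test. Of 22 tested genes of endoplasmic reticulum stress and the amino acid response, 3 were lower at an unadjusted p under 0.05 (Inhbe, Hyou1 and Cebpb) and 1 was higher, the chaperone Hsp90b1 (0.66, with 0.75 and 0.01 on its other probe sets, and 0.10 with the GAPDH covariate). Of the 22, 16 had a negative change, as did 1813 of all 3130 genes. The median of the 22 was -0.22, against -0.06 over all genes, and -0.23 without EtOH-220 replicate 1. Centred on array medians it was -0.3, with 7 of the 22 lower at such a p. In that fit 254 of 3112 genes were lower, and the median of all genes was -0.12. Of 23 genes of oxidative stress defence, 3 were lower at such a p: Hmox1, the thioredoxin reductase Txnrd1 (-0.52, with 0.14 on its second probe set) and the peroxiredoxin Prdx1 (-0.38). Sod2, the mitochondrial superoxide dismutase, was at 184, 208 and 210 against 254, 344 and 304, higher on every ethanol array (0.58, adjusted p = 0.347). The median of that list was -0.07, next to -0.06 over all genes. Of 12 heat shock protein genes 1 had an unadjusted p under 0.05 in each direction, with a median of 0.01.

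**Figure D2:**
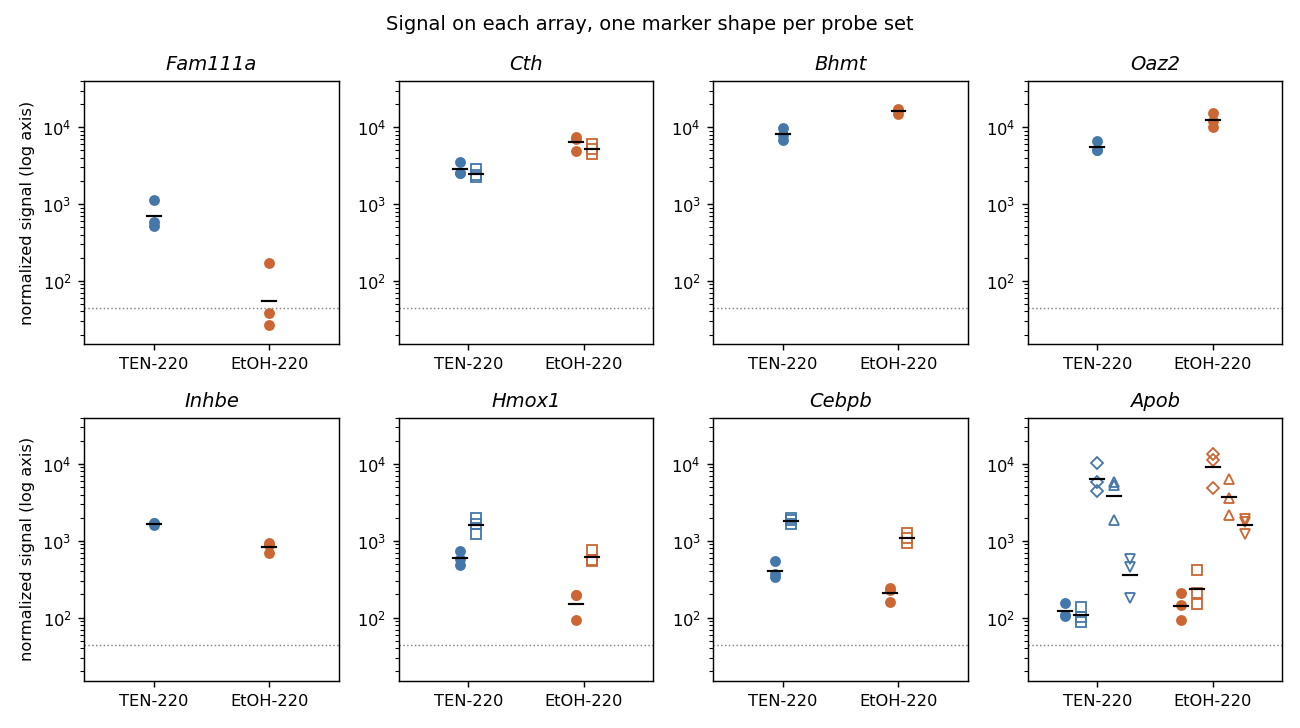
Normalized signal (log axis, no unit) of 8 genes on each TEN-220 and EtOH-220 array, 1 marker shape per probe set, with bars at the group's geometric mean and a dotted line at the background signal of 44. Fam111a in EtOH-220 reaches the background; both probe sets of Cth, Hmox1 and Cebpb separate the groups, whereas the brightest Apob probe sets overlap.

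For 19 of the 22 genes with the smallest p in either direction, a promoter entry was found in the RefSeq table (rat build GRCr8). The 250 bases before the start are shown for the called gene and for the 3 nearest genes that have an entry, so that the start regions of genes on both sides of the comparison can be set beside each other. They read 5′ to 3′ along the gene, and capitals mark matches, on either strand, to 5 of the 6 motifs searched, all chosen after the values were seen: the C/EBP-ATF response element TGATGNAA, the antioxidant response element core TGACNNNGC, the E-box CACGTG, the cAMP response element TGACGTCA and the TATA box TATAAA. The sixth, the CCAAT box CCAAT, is not in capitals.
Fam111a, chr1:219065389-219065638, plus strand: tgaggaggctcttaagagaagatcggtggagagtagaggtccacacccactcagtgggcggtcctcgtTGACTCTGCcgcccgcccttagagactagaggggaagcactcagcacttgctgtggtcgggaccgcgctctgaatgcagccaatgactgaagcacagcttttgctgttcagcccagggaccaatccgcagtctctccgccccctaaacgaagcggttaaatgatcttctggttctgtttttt
Cth, chr2:249661067-249661316, minus strand: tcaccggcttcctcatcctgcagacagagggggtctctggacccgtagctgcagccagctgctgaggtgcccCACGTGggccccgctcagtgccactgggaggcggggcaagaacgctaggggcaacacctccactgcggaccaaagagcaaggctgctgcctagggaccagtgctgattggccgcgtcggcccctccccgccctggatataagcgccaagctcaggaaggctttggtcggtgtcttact
Bhmt, chr2:26614430-26614679, minus strand: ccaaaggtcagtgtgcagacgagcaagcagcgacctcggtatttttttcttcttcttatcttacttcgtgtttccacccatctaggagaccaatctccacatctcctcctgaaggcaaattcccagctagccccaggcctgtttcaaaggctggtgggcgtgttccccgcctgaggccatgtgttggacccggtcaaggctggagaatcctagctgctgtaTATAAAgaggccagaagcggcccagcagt
Inhbe, chr7:65064520-65064769, minus strand: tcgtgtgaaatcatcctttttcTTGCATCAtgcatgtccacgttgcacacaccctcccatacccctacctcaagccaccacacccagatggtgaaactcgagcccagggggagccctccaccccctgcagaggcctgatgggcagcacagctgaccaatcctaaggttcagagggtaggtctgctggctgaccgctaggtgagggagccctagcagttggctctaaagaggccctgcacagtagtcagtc
Among 33469 promoters of the same length, TGATGNAA occurred in 3.4%, TGACNNNGC in 10.1%, CACGTG in 5.59%, TGACGTCA in 1.59%, TATAAA in 12.9% and CCAAT in 34.0%. Fam111a, which fell, held the antioxidant core 182 bases before its start, a position written -182. The Cth region held an E-box at -178 and the Bhmt region a TATA box at -29. Inhbe, on the lower side, held the C/EBP-ATF element at -228, read on the opposite strand. Outside the printed regions, Cebpb held the antioxidant core at -61 and a TATA box at -33. The antioxidant core was also found in Emp1, on the higher side, at -249 on the opposite strand. E-boxes were found on the lower side too, in Vps33a (-46 and -30), Ubxn1 (-53) and Zswim8 (-92). Cp held a TATA box at -27 and, on the opposite strand, at -29. The CCAAT box was found in all 4 printed regions: at -103 and -63 for Fam111a, -73 for Cth (opposite strand), -161 for Bhmt and -96 for Inhbe. A match is only a run of letters.

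Other genes higher on all 3 ethanol arrays differed in kind. Oaz2, an antizyme that restrains polyamine synthesis, had 6659, 5093 and 5006 against 15437, 12105 and 10176 (1.16 ± 0.212, adjusted p = 0.0646). The groups were well apart, and the change was 1.01 without EtOH-220 replicate 1. Map3k12, a stress kinase upstream of JNK, had 39.5, 89.4 and 35.7 against 162, 146 and 210 (1.77, adjusted p = 0.0897), with 2 control arrays under background. Ank3, the membrane scaffold ankyrin G, was at 52, 53.5 and 86.4 against 210, 153 and 174 (1.51, adjusted p = 0.0897). Both genes were dim, so their folds rest on control values near the background. Emp1, an epithelial membrane protein, was not well above background in any control array (33.1, 17.6 and 41.7) and lay at 166, 149 and 157 with ethanol. That is at least 3.58-fold higher with the control group set at 44 (adjusted p = 0.122). Ahr, the aryl hydrocarbon receptor, had 30.8, 51.5 and 72.6 against 154, 195 and 150 (1.77, adjusted p = 0.142). Cd14, the lipopolysaccharide co-receptor of macrophages and hepatocytes, had 600, 509 and 462 against 862, 794 and 1094 (0.80, adjusted p = 0.194), and its second probe set 583, 446 and 278 against 743, 602 and 896 (0.82). Neither Cd14 probe set overlapped. Enpp2, autotaxin, which makes lysophosphatidic acid, gave 0.98 and 0.74 on its 2 probe sets, both without overlap.

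For 2 genes of plasma proteins the probe sets went apart. Apob, the structural protein of very low density lipoprotein, had 452, 178 and 585 against 1768, 1233 and 1914 on one probe set (2.16 ± 0.388, adjusted p = 0.0645), a 4.46-fold difference without overlap. The brightest Apob probe set gave 4428, 5789 and 10376 against 4800, 13678 and 11374, which overlapped (0.50, adjusted p = 0.656). The others gave 0.24, 1.15 and -0.07, and with the GAPDH covariate the first was at 0.80. Cp, the copper oxidase ceruloplasmin, was at 408, 457 and 476 against 931, 605 and 1052 on one probe set (0.91, adjusted p = 0.194). Its brightest probe set, at levels of 15554 and 14268, gave -0.12 with overlapping groups, and the remaining one gave 0.92. For both genes the size of the difference depended on the probe set read.

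Among the genes lower on all 3 ethanol arrays were Kank2, a regulator of the actin cortex (1016, 1049 and 890 against 728, 480 and 411; -0.91, adjusted p = 0.194), and Prkab1, the beta 1 subunit of AMP-activated kinase (563, 686 and 683 against 323, 418 and 392; -0.77, adjusted p = 0.202). Pros1, the anticoagulant protein S, had 2280, 2280 and 1811 against 1203, 1558 and 1287 (-0.66, adjusted p = 0.213). None of these passed, although the groups were apart in each. Ubxn1, an adaptor of the p97 ATPase, gave -0.72 and Zswim8, a ubiquitin ligase receptor, -1.04, each from 1 probe set without overlap. Vps33a, of the lysosomal tethering complex, was at -1.13 on one probe set and -0.04 on its second from the same source sequence. All 24 probe sets of the 22 genes described in these paragraphs as nearest the threshold kept their sign without EtOH-220 replicate 1. That largely follows from the choice of probe sets whose groups do not overlap. With the GAPDH covariate all 24 kept their sign too. Standard errors were wider in the covariate fit, as for Cth on its first probe set (0.178 to 0.299), because the GAPDH ratio separates the groups. An unadjusted p under 0.05 was kept by all 24 without EtOH-220 replicate 1 and by 16 with the covariate. The 8 that lost it with the covariate were those of Apob, Ank3 (0.95), Emp1 (1.14), Cp (0.61), Prkab1 (-0.60), Pros1 (-0.32), Ubxn1 (-0.40) and Zswim8 (-0.68).

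The enzymes that oxidise ethanol showed no common direction. Adh1c, the main alcohol dehydrogenase of rat liver on this array, had 23974, 20773 and 24219 in TEN-220 and 19247, 15570 and 18551 in EtOH-220. The ethanol arrays were all lower, by -0.37 ± 0.13, and the change did not pass (adjusted p = 0.389); the second probe set gave -0.34 with ties between groups. Cyp2e1, the ethanol-oxidising P450, overlapped fully at 27219, 23974 and 22924 against 21744, 25673 and 26089 (-0.01 ± 0.16), and its other 2 probe sets gave -0.23 and 0.00. Aldh2, the mitochondrial acetaldehyde dehydrogenase, had 4650, 4263 and 5677 against 2073, 4208 and 4227 (-0.54, adjusted p = 0.475). The lowest of these was EtOH-220 replicate 1, and without that array the change was -0.20. Aldh3a2, which oxidises fatty aldehydes, was higher on one probe set (1679, 1207 and 1430 against 2374, 2668 and 4562; 1.11, adjusted p = 0.253), whereas its other 2 gave 0.06 and 0.03. Adh4 was at 144, 183 and 198 against 230, 266 and 358 (0.69, adjusted p = 0.327). Catalase, a peroxide-consuming route for ethanol, overlapped (0.38, and 0.46 on its second probe set), and so did the retinal dehydrogenase Aldh1a1 (0.14). Of 11 tested genes of ethanol and aldehyde oxidation, 2 were higher and 2 lower at an unadjusted p under 0.05, with a median of -0.01.

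The cytochromes P450 of families 1 to 3, which oxidise drugs and steroids, had a positive change in 20 of 23 tested genes, with a median of 0.22 and none called. Of all 3130 genes 1317 had a positive change. At an unadjusted p under 0.05, 5 were higher and none lower, against 3.64% higher over all genes. Without EtOH-220 replicate 1 the median was 0.16, with 16 positive and 3 higher. Centred on array medians it was 0.07, with 15 positive and 1 higher, where the median of all genes was -0.12. Cyp3a23-3a1, a steroid and drug hydroxylase, had 4158, 3123 and 1870 against 8413, 4394 and 8768 (1.25 ± 0.332, adjusted p = 0.254). Its second probe set was at 1699, 1406 and 834 against 4949, 1400 and 3023, where 1 ethanol array lay just below the middle control value (1.13); its other 2 both gave 0.60. The testosterone hydroxylases Cyp2a1 and Cyp2a2 gave 0.47 and 0.49, and Cyp2j3, an arachidonate epoxygenase, by 0.55 and 0.33 on its 2 probe sets. Among 24 conjugation enzymes, the glutathione transferase Gsta3 was lower on each of its 3 probe sets, the brightest at 1855, 827 and 1390 against 606, 355 and 732 (-1.25, adjusted p = 0.474). The glucuronosyltransferase Ugt1a5 was at 154, 135 and 170 against 480, 219 and 287 (1.03, and 0.06 with the GAPDH covariate), and the list's median was 0.09.

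Amino acid and fasting genes gave a few wide differences. Sds, serine dehydratase, which feeds serine to gluconeogenesis, had 40.3, 26.4 and 101 against 186, 327 and 140, apart but scattered (2.10 ± 0.658, adjusted p = 0.327), and its second probe set gave 0.30. Asl, the urea cycle enzyme argininosuccinate lyase, had 743, 830 and 830 against 1075, 1276 and 1430 (0.65), and its second probe set 801, 794 and 840 against 1421, 1317 and 1683 (0.85). Both Asl probe sets separated the groups, although neither passed the adjusted test. The median of 26 tested genes of amino acid catabolism and the urea cycle was 0.18 (0.17 without EtOH-220 replicate 1, 0.06 centred on array medians). At an unadjusted p under 0.05, 2 were higher and none lower, against 3.64% higher and 5.5% lower over all genes. A negative change was found in 7 of the 26. Igfbp1, an insulin-suppressed binding protein of IGF, had 87.8, 291 and 257 against 808, 1385 and 248, with 1 ethanol array inside the control range (1.80, adjusted p = 0.342). Pck1, the gluconeogenic carboxykinase, overlapped at 207, 450 and 1372 against 1400, 2927 and 825 (1.57, adjusted p = 0.458; 0.56 with the GAPDH covariate). Of 19 gluconeogenesis and fasting genes 4 were higher and 3 lower at an unadjusted p under 0.05, among the latter Cebpb. Igf1 overlapped on its brightest probe set (-0.15), and its other 4 gave 0.18, 0.13, -0.44 and -1.22.

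In lipid metabolism none of the named members passed the adjusted test. Gpam, the mitochondrial glycerol-3-phosphate acyltransferase that starts triglyceride synthesis, had 503, 269 and 567 against 1371, 702 and 1199 on its brightest probe set (1.30 ± 0.31, adjusted p = 0.202). All 5 of its probe sets were positive, from 0.84 to 1.44; with the GAPDH covariate the brightest was at 0.17. Pnpla3, a lipase of lipid droplets, had 7075, 5775 and 2411 against 1177, 1455 and 2397, apart by a narrow margin (-1.53, adjusted p = 0.386), and with the GAPDH covariate it was at -0.06. Fasn, fatty acid synthase, overlapped at 6283, 3369 and 5726 against 2920, 3523 and 6948 (-0.25), with -0.88 on its other probe set; the first was -0.0 without EtOH-220 replicate 1. Srebf1, the transcription factor of lipogenesis, overlapped (0.13). Of 18 lipogenesis genes 1 was higher and 2 lower at an unadjusted p under 0.05, with a median of -0.09. Of 38 genes of fatty acid oxidation and ketogenesis, 4 were higher and none lower at such a p. Over all genes the shares were 3.64% higher and 5.5% lower. The median of the 38 was 0.14, and 0.10 without EtOH-220 replicate 1, and 13 of them had a negative change. Acot2, a mitochondrial acyl-CoA thioesterase, had 169, 106 and 54.1 against 489, 324 and 212 (1.70, adjusted p = 0.194), with 0.66 on its second probe set. Crot, which makes carnitine esters of medium-chain acids in peroxisomes, was positive on both probe sets (0.83 and 1.13). Cpt1a, the carnitine palmitoyltransferase of the outer membrane, overlapped (0.09). The fatty acid hydroxylase Cyp4a1 overlapped on its brightest probe set (0.21), whereas its other 2 did not (0.60 and 0.44, adjusted p of 0.525 and 0.497). For bile acids, Cyp7a1, the rate-limiting enzyme of synthesis, overlapped (159, 416 and 879 against 1006, 628 and 872; 1.08, adjusted p = 0.475; 0.06 with the GAPDH covariate). Nr1h4, the bile acid receptor FXR, was at 537, 885 and 782 against 353, 290 and 405, lower on every ethanol array (-1.06, adjusted p = 0.322). Cyp27a1, which opens the alternative route, was at 4080, 3961 and 4004 against 2668, 3188 and 3191 (-0.42, with -0.17 on its second probe set). The 17 cholesterol genes held none with an unadjusted p under 0.05.

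For acute phase genes the counts differed between fits more than the median did. Of 27 tested, 6 were lower and 1 (Cd14) higher at an unadjusted p under 0.05. Without EtOH-220 replicate 1 none was lower and 1 higher, while the median went from -0.13 to -0.11. That fit has 1 ethanol array fewer, and over all genes the lower ones went from 172 of 3130 to 120 of 3116. With arrays centred on their median 9 of the 27 were lower. Lcn2, the siderophore binder lipocalin 2, had 517, 317 and 2550 against 135, 277 and 219 (-1.89, adjusted p = 0.393), where 1 control array was far above the rest. A2m, alpha-2-macroglobulin, a marker of the acute phase in rats, was at 670, 1104 and 3101 against 396, 488 and 841 (-1.27, with -0.73, -0.44 and -0.16 on its other probe sets), highest in the same control array. Serpina3n, a serine protease inhibitor, was also highest there, at 21744 (-0.72). Of 36 ribosomal protein genes 26 had a negative change, as did 1813 of all 3130, with a median of -0.16 (-0.20 without EtOH-220 replicate 1). At an unadjusted p under 0.05, 3 were lower, against 5.5% over all genes; with the GAPDH covariate 14 of 36 were positive, with a median of -0.09. Of the 3, Rpl35 had 6333, 7366 and 6586 against 4025, 6009 and 5143 (-0.43, with -0.03 on its second probe set, and -0.10 with the GAPDH covariate). The ribosomal RNA probe sets, which have no place in that list, were higher on 2 ethanol arrays as given above, and their part in the result was not tested. The 31 oxidative phosphorylation genes had a median of 0.05, with Ndufs1, a subunit of complex I, at 73.6, 94.8 and 65.3 against 195, 183 and 133 (1.12, adjusted p = 0.259). Of 11 liver genes listed as female-biased 9 were positive (median 0.18), and of 6 listed as male-biased 4 (median 0.28). Of all 3130 genes 1317 were positive. The first of these lists held the monooxygenase Fmo1, at 120, 115 and 80.6 against 320, 322 and 284 (1.57, adjusted p = 0.286). All rats were female, so the sex bias of listed genes was not tested. The list of 29 immediate early and cell cycle genes held Fam111a, the only gene called among all 3130. Lists were chosen with earlier results of these data known, so that call says nothing about the list. Egr1, an immediate early transcription factor, was high on 2 of the 3 ethanol arrays (436, 489 and 510 against 1199, 450 and 1858; 1.07, with 0.99, 0.16 and 0.34 on its other probe sets; 0.20 with the GAPDH covariate).

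Of the 55 probe sets named from lists alone that had an unadjusted p under 0.05, all 55 kept their sign without EtOH-220 replicate 1, and 32 kept such a p. With the GAPDH covariate, a fit with wider standard errors as said above, 51 kept their sign and 13 such a p. The 4 that lost their sign were those of Hnf4a (0.50 to -0.09), the replication helicase Mcm6 (-0.98 to 0.41), the haem synthesis enzyme Alas2 (0.65 to -0.14) and the ATP synthase subunit Atp5f1e (-0.38 to 0.00).

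**Figure D3:**
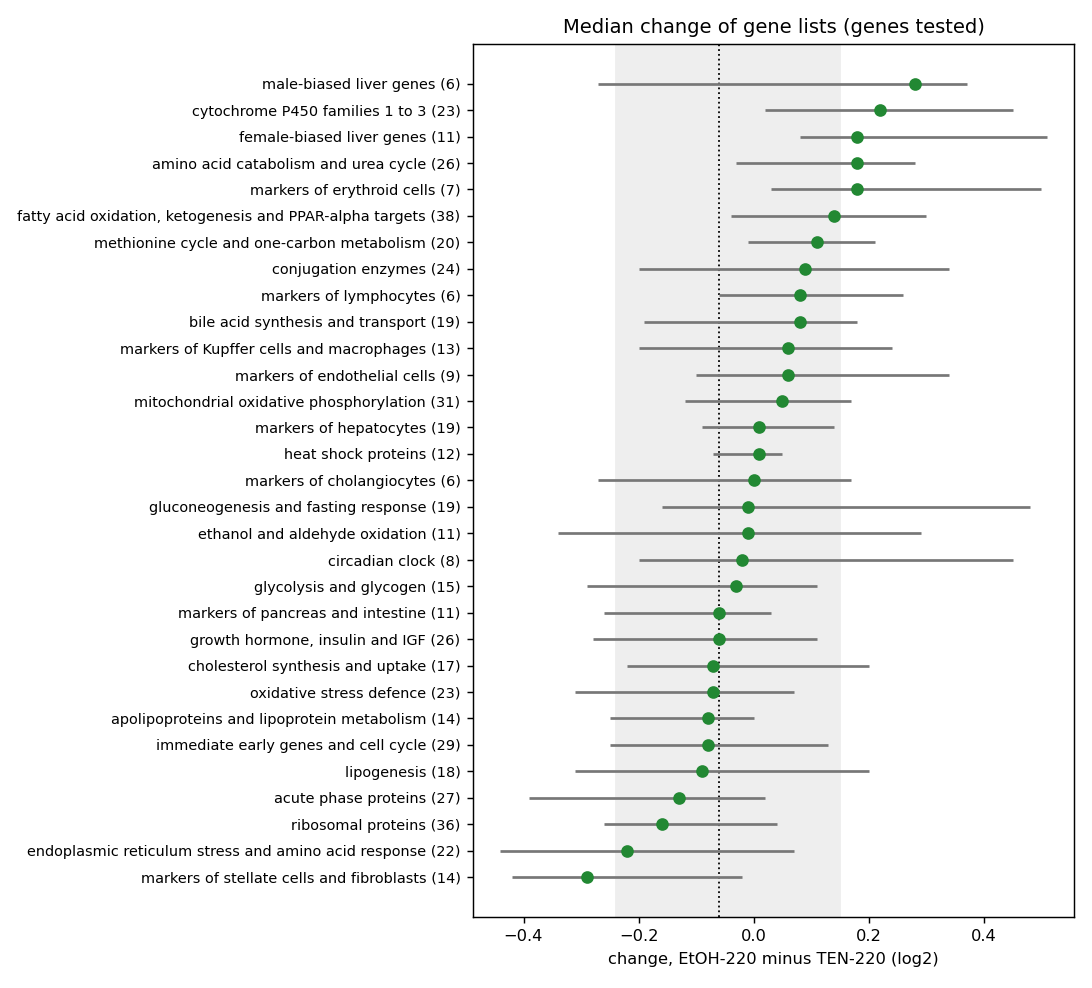
Median change (points, EtOH-220 minus TEN-220, log2) and middle 50% (bars) over the tested genes of each list, read from the brightest probe set; numbers of genes stand in brackets. The dotted line and grey band give the median (-0.06) and middle 50% (-0.24 to 0.15) of all 3130 genes. The medians of the lists drawn lie between -0.29 and 0.28. Not drawn are markers of neutrophils (1 tested gene, -1.26) and of placenta, yolk sac and decidua (3 tested genes, median -0.04).

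Markers of other cell types bear on how whole-liver signals are read. The summed signal of 16 Kupffer cell and macrophage markers ranged from 12128 to 13749 without and from 9920 to 15427 with ethanol, so the ethanol range enclosed the control range, and 2 markers were below background on all 6 arrays. The 17 stellate cell and fibroblast markers summed to 5727 to 7719 against 7164 to 10746. The higher sum came largely through 1 Sparc probe set, at 2419, 1584 and 3127 against 6283, 3275 and 4518. The other Sparc probe sets gave -0.17, -0.24 and -0.27. Of the 14 markers tested 10 had a negative change, with a median of -0.29. Desmin, a defining stellate marker, was below background throughout. Erythroid markers summed to 14346 to 19175 against 16635 to 25054, with 2 of 10 below background. The 7 neutrophil markers were low, and their summed signals did not overlap (265 to 477 against 171 to 239). S100a9, the only marker of these tested, overlapped at 86.7, 73 and 192 against 63.6, 95.2 and 14.6. Defa5, RatNP-3b, Mmp9 and Cxcr2 overlapped too, and Mmp8 was below background on all 6 arrays. S100a8 did not overlap (48.7, 32.9 and 108 against 9.34, 19.4 and 9.34), with every ethanol array under background. Markers of pancreas and intestine reached 4208 to 8772 against 3682 to 5873, largely through the pancreatic carboxypeptidase Cpa1 at 4700, 740 and 4926 against 291, 2226 and 943. Of these 18 markers, Prss2, Ctrb1, Gcg, Reg1a and Reg3b, 5 in all, were below background on all 6 arrays. Others were above it on every array, among them Amy2a3 (822 to 1169), Ins2 (611 to 999), Ins1 (362 to 747), Tff3 (205 to 332) and Pnlip (155 to 230). The part of these markers in the results was not tested.

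Agreement between probe sets of the same gene was examined in 882 genes with 2 or more tested probe sets, 2061 probe sets in all and at most 6 for a gene. The brightest and the second brightest probe set had changes of the same sign in 541 genes (61.3%), and the Pearson correlation of their changes was 0.34 across genes, which are not independent replicates and share the 6 arrays. All probe sets of the gene had 1 sign in 473. Where both probe sets came from the same source sequence, 67.3% of 367 genes had the same sign; where they came from different sequences, 57.1% of 515 did. The share was 56.6% where the brightest probe set had a change under 0.25 in size, 70.0% between 0.25 and 0.5, 69.0% between 0.5 and 1, and 83.3% (15 of 18 genes) at 1 or more. The difference between these shares was not tested.

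Of the 86 genes whose brightest probe set had an unadjusted p under 0.05, the second had the same sign in 70 (81.4%) and the same sign with its own p under 0.05 in 26 (30.2%). These 26, singled out by their values, were 18 higher and 8 lower, and in 21 both probe sets had groups that did not overlap. The higher ones included Cth, Cd14, Asl, Sardh, Gpam, Crot, Cyp3a23-3a1 and Enpp2, described above. Hnf4a, the nuclear receptor that keeps hepatocyte identity, was at 715, 613 and 880 against 1071, 984 and 1026 on one probe set (0.50) and at 401, 325 and 393 against 568, 507 and 614 on the other (0.60), both apart. Klf9, a glucocorticoid-responsive transcription factor, gave 0.76 and 0.60. Ptger3, a prostaglandin E2 receptor, gave 0.83 and 0.53, and Met, the receptor of hepatocyte growth factor, 0.60 and 1.45. The lower ones included Hmox1, Cebpb and Gsta3. Irf1, an interferon-responsive transcription factor, was at 1386, 1228 and 1376 against 869, 924 and 928 (-0.55), and at 510, 409 and 690 against 213, 393 and 368 (-0.74). Gda, guanine deaminase of purine breakdown, was at 1968, 1858 and 1831 against 888, 1249 and 1233 (-0.76) and at 1275, 1094 and 1124 against 796, 861 and 878 (-0.46), while another, dimmer probe set gave 0.46. Icam1, an adhesion molecule of leukocyte traffic, gave -0.52 and -0.59, with every ethanol array below every control array on both. Cxcl14, a chemokine, was lower by different sizes, -0.71 and -2.38.

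In 2 genes both probe sets had an unadjusted p under 0.05 with opposite signs. Eef2, the elongation factor that moves the ribosome, was at 10238, 12105 and 12723 against 6659, 9118 and 10320 on its bright probe set (-0.44) and at 1011, 1046 and 2066 against 3317, 1899 and 2463 on the dimmer one (0.94); the groups overlapped on both. Ccne1, cyclin E1, was at 187, 139 and 141 against 377, 188 and 184 (0.61) and at 155, 199 and 181 against 79.9, 153 and 128 (-0.61), from a single source sequence, with overlap on the first only. For these genes the array gives no direction.

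**Figure D4:**
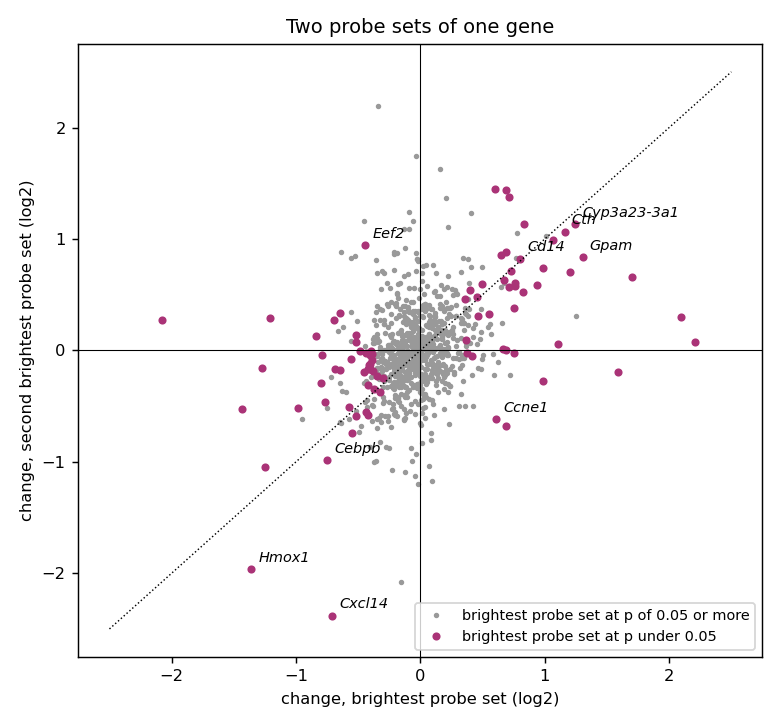
Change of the brightest (x axis) and the second brightest (y axis) tested probe set of 882 genes, EtOH-220 minus TEN-220, log2, with the line of equal change dotted. Of the 86 purple points, whose brightest probe set had an unadjusted p under 0.05, 70 lie in the quadrants of equal sign; Eef2 and Ccne1 do not.

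The ethanol contrast at 160 kcal shares no array with that at 220 kcal, so its values are measurements in other samples, although both contrasts enter 1 fit. There 1168 of the 5244 probe sets were called (22.3%). The GAPDH 3′ to 5′ ratio was 1.242, 1.177 and 1.026 in TEN-160 and 1.647, 1.726, 1.525 and 1.505 in EtOH-160. It was thus higher with ethanol at 160 kcal and lower with ethanol at 220 kcal, without overlap at either energy. The part of RNA integrity in the differences between the 2 ethanol contrasts was not tested. Of the 524 probe sets with an unadjusted p under 0.05 at 220 kcal, 271 (51.7%) had the same sign at 160 kcal, against 50.4% of all tested. The difference between the 2 ethanol contrasts (the interaction) was called in 374 probe sets (7.13%), and in 94 (17.9%) of the 524, which were chosen on one of its terms. Bhmt differed by nearly the same amount at both energies, 1.00 at 220 kcal and 0.95 at 160 kcal (adjusted p = 0.00137 at 160 kcal; interaction adjusted p = 0.915). Cd14 gave 0.80 and 0.81, Enpp2 0.98 and 1.23, and Ank3 1.51 and 1.69, and all 3 passed at 160 kcal (adjusted p of 0.00488, 0.00164 and 0.00121). Cp gave 0.91 and 0.83 on the probe set described first, but its other 2 were lower at 160 kcal (-0.60 and -1.41). Cth was at 1.07 and -0.29 on its first probe set (adjusted p = 0.234 at 160 kcal; interaction adjusted p = 0.00701), but at 1.16 and 0.22 on its second, where the interaction was not called (adjusted p = 0.0919). Oaz2 was at 1.16 and -0.72 (interaction adjusted p = 0.00315). Cebpb was lower at 220 kcal and higher at 160 kcal (-0.75 and 0.62; interaction adjusted p = 0.00251), and Ubxn1 likewise (-0.72 and 1.06; 0.00206). Hmox1 had changes of -1.96 and -0.12 on its first probe set (interaction adjusted p = 0.0311), and Inhbe -1.02 and -0.07 (0.0301). Fam111a fell by 3.66 at 220 kcal and had a change of -0.89 ± 0.488 at 160 kcal, where it was not called (adjusted p = 0.214; interaction adjusted p = 0.033). Of the 12 lower probe sets nearest the threshold the interaction was called in 8, and of the 12 higher ones in 3.

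**Figure D5:**
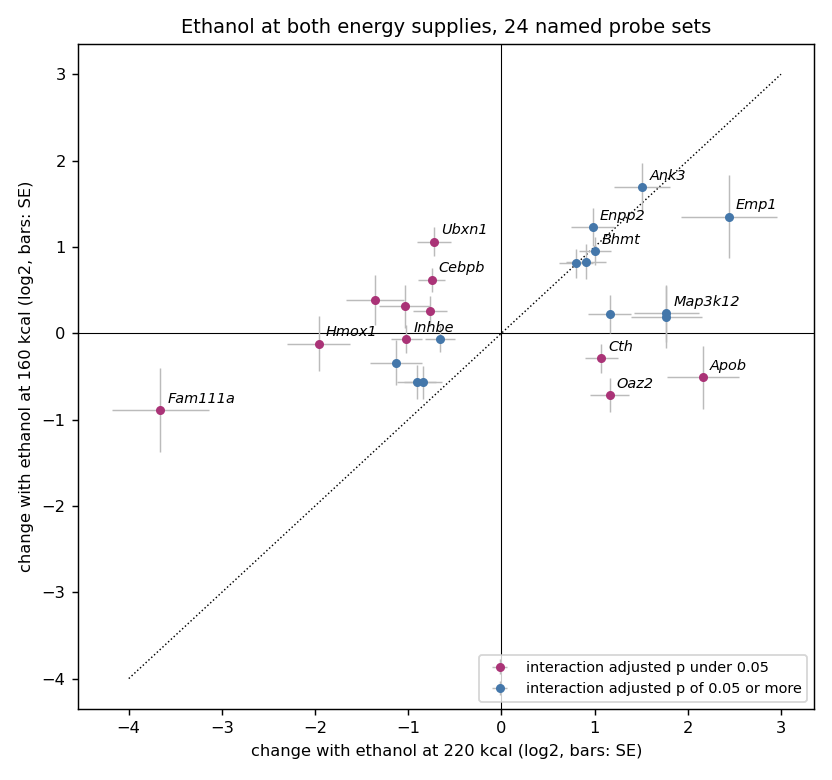
Change with ethanol at 220 kcal (x axis) and at 160 kcal (y axis), log2, for the 24 probe sets nearest the threshold, with standard errors as bars and the line of equal change dotted. Bhmt, Enpp2 and Ank3 lie near the line; the 11 purple points have an interaction with an adjusted p under 0.05, among them Oaz2, Cebpb and Ubxn1, whose change has opposite signs at the 2 energies.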

How the data were processed

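Affymetrix one-colour rat arrays of 13 hepatic RNA samples were used. The deposited values are intensity signals on a linear scale that the authors made with MAS5, per the submitters' processing notes, with the version not given in the sources used here. From them, the 8740 non-control probe sets were quantile normalized over all 13 arrays, because TEN-220 replicate 1 was off the common scale. Signals under the 10th percentile (9.338) were set to it, values taken to log2, and the 40% of probe sets with the lowest mean left out. The background, 44, is the 95th percentile over 19 controls made for foreign sequences. A linear model with 4 group means was fitted by lmFit of limma 3.58.1 (R 4.3.3), with a mean-variance trend in eBayes. Tests were two-sided, and p-values were adjusted by Benjamini and Hochberg's method over all 5244 probe sets within each contrast. Tables and figures were made in Python 3.11.15 with matplotlib 3.10.9. Precision is limited by how few arrays there are: standard errors of a change had a median of 0.254.

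Array annotation, updated through Entrez IDs, named 1 gene for 7006 probe sets (6985 matched), several for 308 and none for 1426. Where a gene is counted once, its brightest probe set stands for it. Named were called probe sets, the 12 higher and 12 lower ones with the smallest p among those whose groups did not overlap, genes listed beforehand by role, and up to 4 members of each list. Genes named for agreement of 2 probe sets were chosen after their values were seen. The members and lists were chosen with earlier results of these data known. No list was tested as a set. Replicate numbers did not pair the arrays (correlations of the deviations of same-numbered arrays from -0.112 to 0.085 over 18 pairs). The code was tested on simulated data. Promoters came from the RefSeq table.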

Additional observations from a re-analysis of the deposited data

Results flagged for a closer look

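For 24 of the 146 named probe sets, of 23 genes, the 2 ethanol contrasts differed by the interaction test (limma, adjusted p under 0.05). That test was called in 7.13% of the 5244 probe sets tested. The values are the change at 160 kcal minus the change at 220 kcal, on the log2 scale. Among genes nearest the threshold at 220 kcal, they were positive for Fam111a (2.78), Inhbe (0.95), Hmox1 (1.84 and 1.74 on its 2 probe sets), Cebpb (1.37), Prkab1 (1.04), Ubxn1 (1.79) and Zswim8 (1.36), all lower with ethanol at 220 kcal. They were negative for Cth (-1.35, on 1 of its 2 probe sets), Apob (-2.67) and Oaz2 (-1.88). Among genes named by role, Fasn gave 2.31 and Gnmt 1.37, with overlapping groups at 220 kcal, and Igfbp1 gave -2.9. Among genes named from lists, the value was positive for Gamt (0.79), which makes creatine, Haao (0.85), an enzyme of tryptophan breakdown, the desaturase Scd (1.87) and the anion exchanger Slc4a2 (0.96). It was negative for Adh4 (-1.17), Sod2 (-1.0), Hlf (-1.12), the complex III subunit Uqcrc2 (-1.47), the peroxisomal oxidase Hao2 (-1.8) and the antigen-presenting protein RT1-Ba (-1.77). Genes chosen for their difference at 220 kcal were chosen on a term of the interaction. The GAPDH ratio went in opposite directions at the 2 energies, as given above, and its part in these calls was not tested. Of all 238 probe sets of the named genes the interaction was called in 36, so 12 further ones passed beside those given, among them the second ones of Cebpb and Fasn. EtOH-220 replicate 1 stood apart by the array correlations given above, and no test for outlying samples was run.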

How the results depend on the processing

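The 29 alternatives were read on 40 of the 146 named probe sets. These are the 24 nearest the threshold and those of genes listed beforehand by role. Probe sets named from lists alone were left out, so the sign changes below are those of the 40. Of the 40, 30 had no change of sign. For the 24 that largely follows from choosing groups that do not overlap. Of the 40, 17 were called under at least 1 alternative and not here. Counts called were 0 higher and 1 lower. They became 0 and 2 with median-centred arrays, 5 and 3 with the floor at the background or the lowest 60% left out, 11 and 5 with array weights, 3 and 3 with probe sets of a gene averaged, and 1 higher and 0 lower with the GAPDH covariate. They were 0 with normalization of the 6 arrays alone, no filter, only these 2 groups in the fit, or no variance trend (smallest adjusted p for Fam111a 0.0823 among these). The replicate block gave 1 higher (Cth, adjusted p = 0.0256) and 1 lower. With values as deposited 57 were higher and 1 lower, with 570 and 7 at an unadjusted p under 0.05, 10.9% not overlapping and 98.7% agreement between probe sets. At an unadjusted p under 0.05, no filter gave 355 and 432 (14.5% not overlapping, agreement 71.1%), the GAPDH covariate 129 and 107, and averaged probe sets 127 and 175; the 60% filter gave 19% not overlapping. Leaving out 1 array gave 0 to 8 called higher, 0 to 4 lower, 186 to 276 and 163 to 354 at an unadjusted p under 0.05, and 17.8% to 31.0% not overlapping. Added after the data were seen were trimmed-mean scaling without TEN-220 replicate 1 (0 called, 228 and 147, 23.4%) and control probe sets in the normalization (2 and 3 called; Bhmt, Cth, Inhbe and Hmox1 then at 0.0493). The sign turned for these: with values as deposited Adh1c (0.24, from -0.37), Cyp2e1 (0.61), Aldh2 (0.09, from -0.54), Fasn (0.34), Igf1 (0.45) and Afp (0.63); with array weights Cyp2e1 (0.01), Aldh1a1 (-0.01) and Cpt1a (-0.0); with the GAPDH covariate Cyp2e1 (0.28), Cpt1a (-0.22) and Mat1a (-1.0, from 0.26); with the added scaling Cyp2e1 (0.05), Cpt1a (-0.02) and Afp (0.25). Leaving out 1 array gave ranges across 0 for Cyp2e1 (-0.06 to 0.06), Aldh1a1 (-0.04 to 0.25), Srebf1 (-0.11 to 0.46), Cpt1a (-0.07 to 0.2), Afp (-0.35 to 0.21) and Mat1a (-0.03 to 0.76). The cause was not tested. Dim probe sets limit the depth: 3496 were too dim to test.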

Other observations

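Several groups not described above held few differences. Of 14 tested apolipoprotein and lipoprotein genes, 2 were lower and none higher at an unadjusted p under 0.05, with a median change of -0.08. Apoa2, a structural protein of high density lipoprotein, had signals of 23780, 22514 and 22110 in TEN-220 and 17747, 17747 and 19722 in EtOH-220, lower on every ethanol array (-0.31, adjusted p = 0.3). Apobec1, which edits the Apob transcript, had 427, 481 and 376 against 200, 268 and 232, also without overlap (-0.88, adjusted p = 0.311). At 160 kcal the Apobec1 change was -0.91, with an adjusted p of 0.0199 there.

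Of 8 circadian clock genes, 2 were higher at an unadjusted p under 0.05, against 3.64% higher over all genes. Hlf, a PAR bZIP output factor of the clock, had 76.9, 69.9 and 87.1 against 113, 150 and 135 (0.76, adjusted p = 0.259). Klf9 had 336, 370 and 378 against 685, 763 and 437. Neither overlapped. Of 26 genes of growth hormone, insulin and IGF signalling, 2 were higher and none lower at such a p, although 17 had a negative change. Among the 2 was Igf1r, the IGF1 receptor, at 76.6, 76.5 and 109 against 129, 149 and 146 (0.71, adjusted p = 0.483). Alpha-fetoprotein, which the fetal liver secretes, overlapped at 463, 212 and 351 against 289, 309 and 354 (-0.04). Of 15 glycolysis and glycogen genes none had an unadjusted p under 0.05 in limma's test, none was called, and the median was -0.03. Of 6 liver genes listed as male-biased 1 was higher at such a p, with a median of 0.28 that became -0.0 without EtOH-220 replicate 1.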
